A study of Mus musculus with 4 samples.

Results

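The genes described here are 5 interferon-induced ADP-ribosyltransferases (Parp9, Parp10, Parp11, Parp12 and Parp14), their ubiquitin ligase partner Dtx3l, and Parp1, which serves as a constitutively expressed comparison. They were chosen by name: each is represented by the array row whose platform annotation gives that gene symbol alone. All 7 had exactly 1 such row, among 19752 genes with a row of their own, and all 7 passed the filter on dim genes (on at least 1 array, a level over that array's median), as did 10699 genes in all. RNA came from splenic CD4+ T cells of male C57BL/6 mice aged 6 weeks, isolated by negative selection and activated for 48 h with beads carrying antibodies to CD3 and CD28. Activated cells without cytokine (baseline) were measured on 2 arrays, cells given IFNa at 100 U/ml for 2 h on 1 array, and cells given IFNa at 100 U/ml for 8 h on 1 array. All 3 groups shared the strain, sex, age, activation and Affymetrix Mouse Gene 1.0 ST platform, and no genotype other than the strain is given. The preparation label of both IFNa samples mentions JAK inhibitors as present or absent, whereas the cytokine label names IFNa alone. No cells cultured equally long without IFNa are among the 4 arrays, so the effects of IFNa and of culture time cannot be told apart. It is not stated that the baseline samples are separate mice or cultures. P-values therefore set each difference against a spread taken only from these 2 baseline arrays and largely shared over all genes. That spread may be technical.

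ADP-ribosyltransferases take ADP-ribose from NAD and attach it to proteins or nucleic acids. Parp1 builds poly(ADP-ribose) chains at DNA breaks, while Parp10, Parp11, Parp12 and Parp14 add single units. Parp9 carries macrodomains, which bind ADP-ribose, and works in a complex with Dtx3l, an E3 ubiquitin ligase of the deltex family. Type I interferon induces several of these genes through ISGF3, a factor that includes Stat2 and Irf9 and binds a promoter element called ISRE. Products of this group have been studied as antiviral effectors, and several viruses encode macrodomains that remove ADP-ribose.

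The CD4+ T cell label was set beside its markers. The 7 of 9 listed T cell genes with a row of their own (among them Cd4, Cd3e, Cd3g and Cd28) were all tested. Their summed intensities were 28058 and 32622 at baseline, with 31923 at 2 h and 34882 at 8 h. On the log2 scale the baseline arrays held Cd4 at 11.66 and 12.43, Cd8b1 at 9.78 and 9.68, and Cd8a at 7.86 and 7.49. The share of CD4+ cells was not tested. Among markers of other cells, all 4 measured B cell genes and both CD8 genes also passed the filter, against 2 of 6 myeloid, 0 of 5 dendritic, 1 of 4 NK and 2 of 4 neutrophil and erythroid genes. None of these 18 tested T cell and other markers was called in any comparison (limma), while 1 at 2 h, 3 at 8 h and 4 for 8 h minus 2 h had an unadjusted p under 0.05. Those at 8 h were Ms4a1 of B cells at 0.75 (adjusted p = 0.0882), Fcgr3 of myeloid cells at 0.56 and the erythroid gene Slc4a1 at 0.67. The one at 2 h was Lyz2 of myeloid cells at −0.92, while Fcgr3, the other tested myeloid gene, stood at 0.46 at 2 h. All were named after their values were seen. The B cell genes summed to 2165 and 2185 on the baseline pair, 2099 at 2 h and 2776 at 8 h, and their part in the results was not tested. RMA intensities have no true zero, so no marker can be read as absent. The arrays had medians between 176 (2 h) and 199 (8 h). In a bulk sample, fewer cells of a type and less RNA per cell cannot be told apart.

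Because ISRE elements lie near gene starts, the promoters of the members were searched for them. RefSeq promoters (GRCm38.p6, 250 bases before to 50 bases after the start) were at hand for 4 of the 7 genes, Dtx3l, Parp12, Parp11 with 2 starts, and Parp1. The sequences below are shown 5′ to 3′ on the gene's strand, and capitals mark a match to the ISRE core (GAAA, any 2 bases, GAAA) or to the GAS core, an element of interferon gamma responses (TTC, any 3 bases, GAA), searched on both strands. They lie at chr16:35938978-35939277 on the minus strand (Dtx3l), chr6:39118300-39118599 on the minus strand (Parp12), chr6:127446590-127446889 on the plus strand (the Parp11 start at lower coordinates) and chr1:180568641-180568940 on the plus strand (Parp1).
Dtx3l: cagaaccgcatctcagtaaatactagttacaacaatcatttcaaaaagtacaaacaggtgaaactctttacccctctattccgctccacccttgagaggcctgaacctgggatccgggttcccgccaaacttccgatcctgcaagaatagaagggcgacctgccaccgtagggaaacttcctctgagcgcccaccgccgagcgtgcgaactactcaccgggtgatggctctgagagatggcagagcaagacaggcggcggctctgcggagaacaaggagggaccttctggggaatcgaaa
Parp12: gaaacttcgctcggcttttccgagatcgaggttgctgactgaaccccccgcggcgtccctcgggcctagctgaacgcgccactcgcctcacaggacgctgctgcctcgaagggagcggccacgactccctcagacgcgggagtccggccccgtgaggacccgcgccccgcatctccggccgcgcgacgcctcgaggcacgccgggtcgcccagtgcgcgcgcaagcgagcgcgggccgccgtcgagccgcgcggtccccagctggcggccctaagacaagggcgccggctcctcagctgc
Parp11: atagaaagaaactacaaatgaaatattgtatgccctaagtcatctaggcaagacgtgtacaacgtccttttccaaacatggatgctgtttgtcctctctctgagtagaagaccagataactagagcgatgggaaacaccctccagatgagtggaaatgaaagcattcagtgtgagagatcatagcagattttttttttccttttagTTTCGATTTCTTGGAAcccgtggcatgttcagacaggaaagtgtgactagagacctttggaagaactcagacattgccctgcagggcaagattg
Parp1: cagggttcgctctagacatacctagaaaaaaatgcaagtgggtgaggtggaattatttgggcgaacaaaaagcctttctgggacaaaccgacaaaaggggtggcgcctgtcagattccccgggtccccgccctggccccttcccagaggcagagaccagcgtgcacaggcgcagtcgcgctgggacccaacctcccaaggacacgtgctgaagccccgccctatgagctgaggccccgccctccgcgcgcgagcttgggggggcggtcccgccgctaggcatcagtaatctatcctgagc

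Only the Parp11 start at lower coordinates held a match in this window. Its ISRE core ran from base −44 to base −35 relative to the start, on the opposite strand, and its GAS core, which reads as such on both strands, ran from −37 to −29, so that the motifs overlap. Over all 32851 promoters of this length in the table, 3.44% held the ISRE core and 8.3% the GAS core. The second Parp11 start and the windows of Dtx3l, Parp12 and Parp1 held neither set of letters, which says nothing of factor binding outside or within them.

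At 2 h of IFNa, Parp12, Parp14 and Parp9 rose, and all 6 interferon-induced members lay above both baseline arrays. Of these 6, 3 were called higher and none lower (limma, Benjamini-Hochberg adjusted p under 0.05 over all genes), against 1.09% of all tested genes called higher. Lying above both baseline arrays was common, at 44.5% of all tested genes. The median log2 difference of the 6 was 1.13, against 0.06 for all tested genes. Differences of at least 2-fold were reached by the same 3 genes, Parp12, Parp14 and Parp9, and by 1.77% of all tested genes.

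Parp12, a zinc finger mono-ADP-ribosyltransferase that restricts the replication of several RNA viruses, changed most. Baseline intensities of 188 and 189 stood against 1238 at 2 h and 565 at 8 h. Both baseline values lay close to the array medians, and the IFNa arrays stood clear of them. The log2 difference at 2 h was 2.72 (SE 0.20, 95% interval 2.26 to 3.17, 1 array against 2, adjusted p = 0.000602 by limma), a 6.57-fold rise that ranked 10 among 10699 tested genes. At 8 h it was 1.58 (SE 0.20, interval 1.12 to 2.04, adjusted p = 0.00706), a 3.0-fold rise that ranked 32.

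Parp14, a large macrodomain protein known as a coactivator of Stat6, followed. The baseline arrays read 908 and 1007, the 2 h array 3826 and the 8 h array 2286, so both IFNa arrays lay above both baseline arrays by more than those differed. The rise was 4.0-fold at 2 h (log2 difference 2.0, SE 0.21, interval 1.53 to 2.47, adjusted p = 0.00269 by limma) and 2.39-fold at 8 h (1.26, SE 0.21, interval 0.79 to 1.73, adjusted p = 0.0195). It ranked 32 among all tested genes at 2 h and 42 at 8 h.

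**Figure D1:**
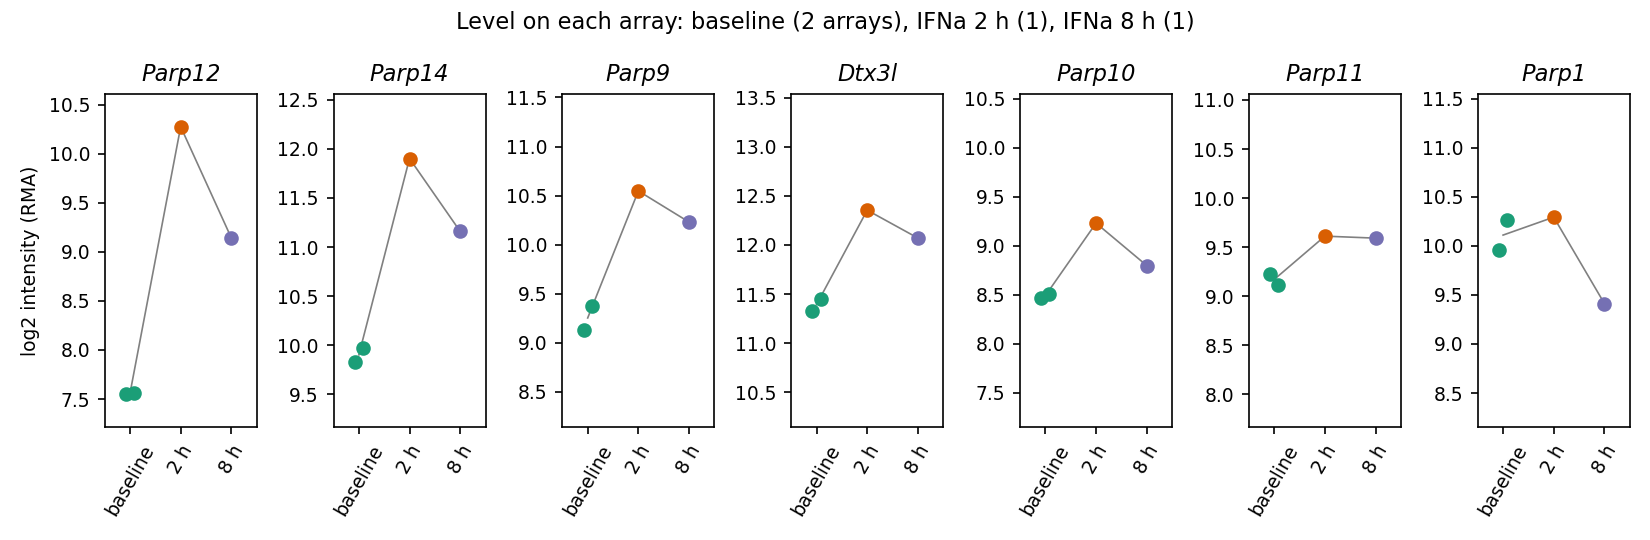
Log2 RMA intensity of each gene (vertical axis, every panel spanning the same number of log2 units) on the baseline arrays (2 points), the 2 h IFNa array and the 8 h IFNa array; the grey line joins the baseline mean to the IFNa arrays. The 6 interferon-induced members are highest at 2 h and above both baseline arrays at 8 h, most widely for Parp12 and Parp14, while the 8 h point of Parp1 lies below both baseline points.

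Parp14, Dtx3l and Parp9 stand next to each other on chromosome 16 in that order, with no other protein-coding gene between them, and the RefSeq spans of Dtx3l and Parp9 overlap. In human cells the last pair share a bidirectional promoter that responds to interferon gamma. Parp9 had intensities of 562 and 664 at baseline, with 1497 at 2 h and 1202 at 8 h. It rose 2.45-fold at 2 h (log2 difference 1.29, SE 0.21, interval 0.81 to 1.78, adjusted p = 0.0288 by limma) and 1.97-fold at 8 h (0.98, SE 0.21, interval 0.49 to 1.46, adjusted p = 0.0452). With no filter on dim genes both calls were lost (adjusted p = 0.0632 and 0.0972), and the 8 h call also with the filter set at the 60th percentile (adjusted p = 0.0575).

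Dtx3l had intensities of 2578 and 2806 at baseline, with 5237 at 2 h and 4302 at 8 h. Both IFNa arrays again lay above both baseline arrays, but neither difference passed the test. The log2 difference was 0.96 at 2 h (SE 0.20, interval 0.50 to 1.43, adjusted p = 0.0828 by limma) and 0.68 at 8 h (SE 0.20, interval 0.21 to 1.14, adjusted p = 0.1). After quantile normalization it passed at 2 h and at 8 h (adjusted p = 0.00822 and 0.0113), and at 2 h also with arrays centred on their medians (adjusted p = 0.0136) or with a prior that follows intensity (adjusted p = 0.0262). The difference of Parp9 from baseline exceeded that of Dtx3l by 0.33 on the log2 scale at 2 h and by 0.30 at 8 h, and the intervals of the pair overlapped at both times. Whether the probe sets of these overlapping genes share transcript sequence was not tested.

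Parp10 and Parp11 had the smallest differences of the 6 and passed the test at neither time. Parp10, a mono-ADP-ribosyltransferase found as a partner of Myc, had intensities of 355 and 365 at baseline, with 601 at 2 h and 445 at 8 h. Its log2 difference was 0.74 at 2 h (SE 0.20, interval 0.28 to 1.20, adjusted p = 0.191 by limma) and 0.31 at 8 h (SE 0.20, interval −0.15 to 0.77, adjusted p = 0.37). After quantile normalization the 8 h difference was 0.58 (adjusted p = 0.051), which missed the threshold narrowly. Both IFNa arrays lay above the closely spaced baseline arrays.

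Parp11, which in human cells promotes loss of the interferon receptor chain IFNAR1, had intensities of 598 and 556 at baseline, with 783 at 2 h and 772 at 8 h. The IFNa arrays were nearly level with each other and above both baseline arrays. Its log2 difference was 0.44 at 2 h (SE 0.20, interval −0.02 to 0.91, adjusted p = 0.438 by limma) and 0.42 at 8 h (SE 0.20, interval −0.04 to 0.89, adjusted p = 0.24). After quantile normalization the 8 h difference became 0.69 and passed (adjusted p = 0.0202). Of the interferon-induced members, only Dtx3l, Parp12 and Parp11 had a promoter at hand. Among these, Parp11, with matches only at its start at lower coordinates, had the smallest difference at 2 h and at 8 h. Whether the matches bear on the response was not tested.

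At 8 h the interferon-induced members had a median log2 difference from baseline of 0.83, against −0.16 for all tested genes. The 3 called higher were again Parp12, Parp14 and Parp9, against 0.654% of all tested genes called higher and 3.35% called lower. Parp12 and Parp14 differed at least 2-fold, as did 0.57% of all tested genes in that direction. All 6 lay above both baseline arrays at 8 h, as did 24.4% of all tested genes. Both comparisons with baseline share the baseline arrays, so their agreement is not independent.

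Parp1 did not follow the others. Its baseline arrays read 996 and 1225, the 2 h array 1254 and the 8 h array 681, so the 2 h array lay just above the higher baseline array and the 8 h array below both. The log2 difference was 0.18 at 2 h (SE 0.22, interval −0.32 to 0.68, adjusted p = 0.748 by limma) and −0.70 at 8 h (SE 0.22, interval −1.20 to −0.20, adjusted p = 0.111), neither of which passed the test. The baseline arrays differed more for Parp1 (by 0.30 on the log2 scale) than for any of the other 6 genes. At 8 h the differences of the 6 genes from baseline exceeded that of Parp1 by 1.0 (Parp10) to 2.28 (Parp12) on the log2 scale. At 2 h they did so by 0.26 (Parp11) to 2.53 (Parp12). These values do not depend on a shift of a whole array, but at 8 h they include the −0.70 of Parp1 itself. For 8 h minus 2 h, the differences less that of Parp1 ran from −0.25 (Parp12) to 0.86 (Parp11), with 0.14 for Parp14.

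**Figure D2:**
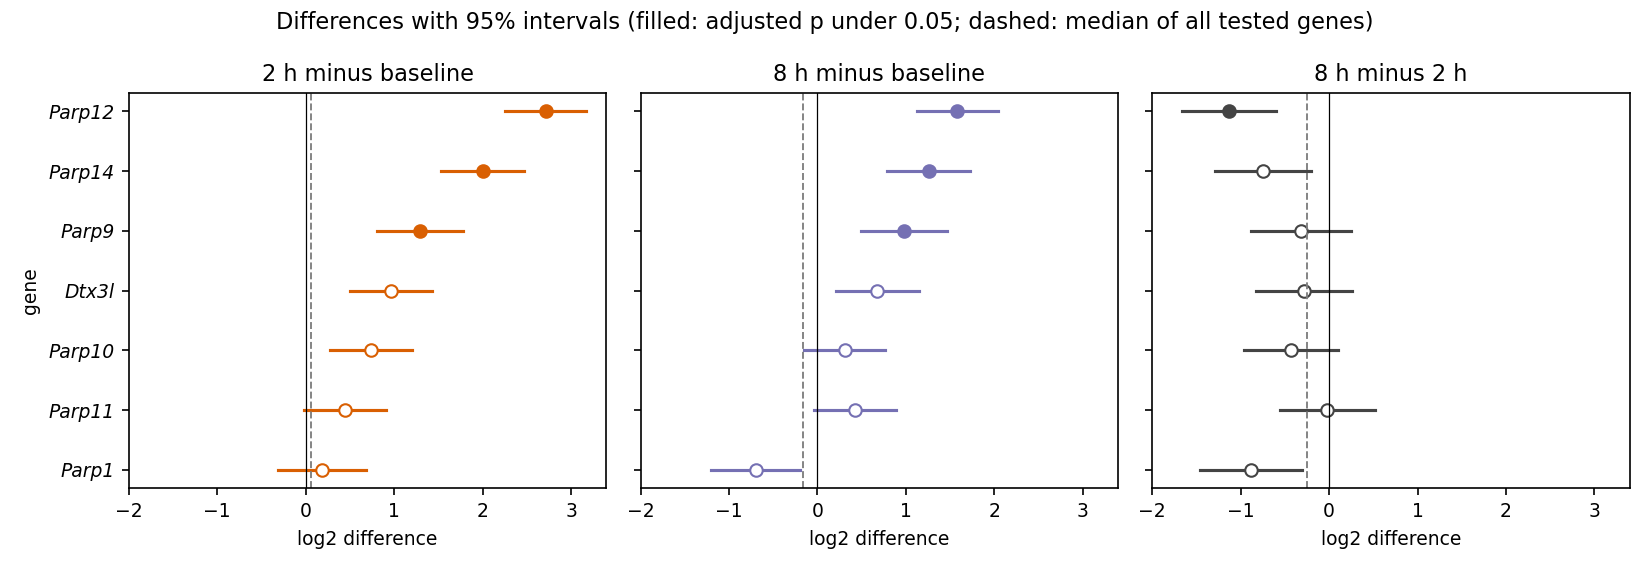
Log2 differences (horizontal axis) of the 7 genes for 2 h minus baseline, 8 h minus baseline and 8 h minus 2 h, with 95% intervals from limma as bars. Filled points had an adjusted p under 0.05 and the dashed line is the median of all tested genes. Parp12, Parp14 and Parp9 are filled in both comparisons with baseline, and Parp12 alone is filled in 8 h minus 2 h.

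The comparison of 8 h with 2 h asks whether the early level was held. Parp12 fell to 565 at 8 h, against 1238 at 2 h (log2 difference −1.13, SE 0.23, interval −1.66 to −0.60, 1 array against 1, adjusted p = 0.0246 by limma). It was the 1 member of 6 called lower, and none was called higher, against 10.8% of all tested genes called lower and 1.46% called higher. This call was lost with no filter on dim genes (adjusted p = 0.0529), and after quantile normalization the difference was −0.73 and still passed (adjusted p = 0.0254). Parp14 stood at −0.74 (SE 0.24, adjusted p = 0.069) and passed with arrays centred on their medians (adjusted p = 0.0327).

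The other 4 interferon-induced genes differed by less between the times. Parp10 stood at −0.43 (SE 0.23), Dtx3l at −0.28 (SE 0.24), Parp9 at −0.32 (SE 0.25) and Parp11 at −0.02 (SE 0.23), and none passed the test. After quantile normalization the signs of Parp9 and Parp11 turned, to 0.017 and 0.39, and Parp10 stood at −0.034 and Dtx3l at −0.12. All 6 followed the order 2 h above 8 h above both baseline arrays, which 4.27% of all tested genes also did, though Parp9 and Parp11 left that order after quantile normalization. Parp1 was lower at 8 h than at 2 h by a difference of −0.88 (SE 0.25, adjusted p = 0.054 by limma), and passed with arrays centred on their medians (−1.06, adjusted p = 0.0131), whereas after quantile normalization it was −0.47 (adjusted p = 0.152).

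The median of all tested genes moved with the scaling of the arrays. For 8 h minus 2 h it was −0.25 as deposited, 0.00 after quantile normalization and −0.43 with arrays centred on their medians. For 2 h minus baseline these medians were 0.06, −0.01 and 0.15, and for 8 h minus baseline −0.16, 0.00 and −0.24. Relative to that median, the 8 h minus 2 h difference of Parp12 was −0.88 as deposited and −0.73 after quantile normalization, and that of Parp14 −0.49 and −0.53. Parp11 was higher at 8 h than at 2 h relative to all genes by 0.23 as deposited and by 0.39 after quantile normalization. Relative to all genes the 8 h minus baseline difference of Parp1 was −0.53 as deposited and −0.43 after quantile normalization.

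**Figure D3:**
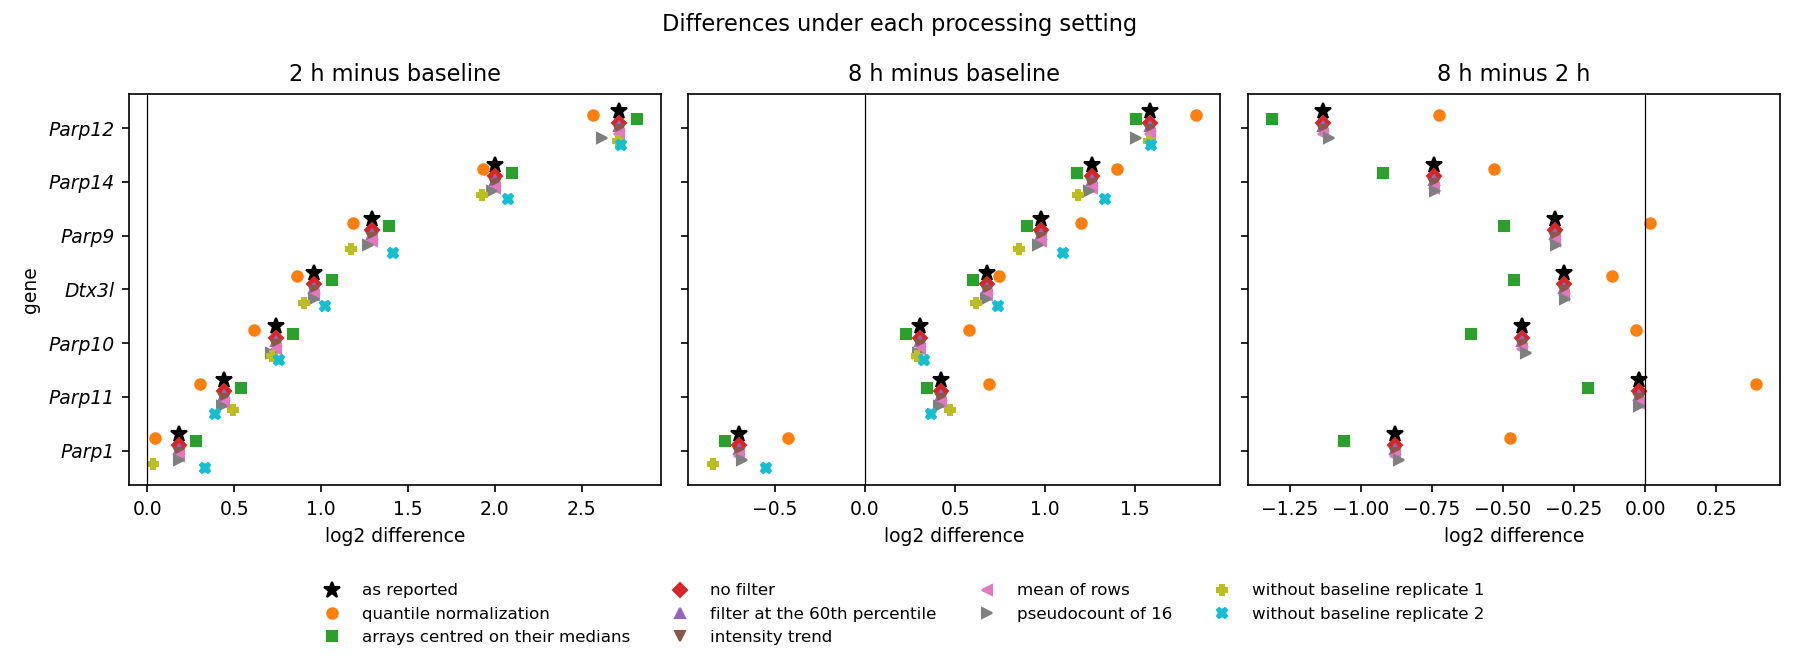
Log2 differences (horizontal axis) of the 7 genes in the 3 comparisons under each processing setting, with the reported value as a star. In the comparisons with baseline every point keeps the sign of its star, which leaving out a baseline array could not change. In 8 h minus 2 h the quantile normalized points of Parp9 and Parp11 lie on the other side of 0.

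Other genes of ADP-ribose metabolism were set beside the members. Of 10 further PARP family genes 9 were measured and tested, and none was called by limma in either direction at 2 h or 8 h (2 and 4 had an unadjusted p under 0.05). Their medians were 0.19 at 2 h and −0.24 at 8 h. Parp8 stood at 0.83 at 2 h (SE 0.20, adjusted p = 0.142) and 0.46 at 8 h (SE 0.20), and Parp16, which lies in the membrane of the endoplasmic reticulum, at −0.55 (SE 0.24) and −0.64 (SE 0.24). Zc3hav1, the zinc finger antiviral protein, named here after its values were seen, stood at 0.54 at 2 h (SE 0.20, adjusted p = 0.346) and 0.41 at 8 h (SE 0.20, adjusted p = 0.25). The tankyrase Tnks2 was the 1 gene of this list called for 8 h minus 2 h (−0.94, SE 0.24, adjusted p = 0.0418).

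Genes that remove ADP-ribose held no call in any comparison (5 measured of 7, with 0 at an unadjusted p under 0.05 at 2 h or 8 h and 1 for 8 h minus 2 h, limma). The mono-ADP-ribose hydrolase gene Macrod2 stood at −0.96 at 2 h (SE 0.45) with baseline arrays that lay far apart, at 9.95 and 8.60 on the log2 scale, and Adprhl2, which removes ADP-ribose from serine, at 0.40 (SE 0.22). The other 4 deltex genes, all measured, also held no call (limma, 0 and 2 at an unadjusted p under 0.05 at 2 h and 8 h). Dtx3 stood at −0.36 at 2 h (SE 0.20) and −0.64 at 8 h (SE 0.20), and Dtx4 at 0.05 (SE 0.21) and 0.49 (SE 0.21).

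NAD is the substrate from which ADP-ribosyltransferases take ADP-ribose. Of 14 genes of NAD metabolism, 13 had a row and 9 were tested, with no call against baseline (limma, 1 and 3 at an unadjusted p under 0.05 at 2 h and 8 h). Nampt, the rate-limiting enzyme of NAD salvage, stood at 0.61 at 2 h (SE 0.20, adjusted p = 0.294) and −0.27 at 8 h (SE 0.20). Nadk2, the mitochondrial NAD kinase, stood at 0.38 (SE 0.22) and −0.73 (SE 0.22, adjusted p = 0.101). For 8 h minus 2 h both were called lower, Nampt at −0.88 (SE 0.23, adjusted p = 0.0465) and Nadk2 at −1.11 (SE 0.26, adjusted p = 0.033).

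Parp1 works with the enzymes of single-strand break repair, of which 9 of 10 listed were tested and none was called against baseline (limma, 1 and 2 at an unadjusted p under 0.05 at 2 h and 8 h). Their median was 0.08 at 2 h and −0.41 at 8 h, with values between −0.92 and −0.02 at 8 h. All 9 stood below 0 at 8 h, as did 67.4% of all tested genes, and 8 of the 9 stood below the median of all tested genes (−0.16). The DNA ligase Lig3 stood at 0.08 at 2 h (SE 0.23) and −0.92 at 8 h (SE 0.23, adjusted p = 0.0622), and Tdp1 at −0.23 (SE 0.20) and −0.66 (SE 0.20). Lig3 and the flap endonuclease Fen1 were called lower in 8 h minus 2 h, with differences of −1.0 (SE 0.26, adjusted p = 0.0448) and −0.93 (SE 0.24, adjusted p = 0.042).

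Stat2 and Irf9, both of ISGF3, were tested. Stat2 rose at 2 h (1.42, SE 0.23, adjusted p = 0.0261 by limma) and stood at 0.88 at 8 h (SE 0.23, adjusted p = 0.0725). Irf9 stood at 1.04 at 2 h (SE 0.20, adjusted p = 0.0613) and at 0.99 at 8 h (SE 0.20, adjusted p = 0.0388), and only the latter passed the test. Its level was nearly the same at both times, with −0.05 for 8 h minus 2 h (SE 0.24).

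**Figure D4:**
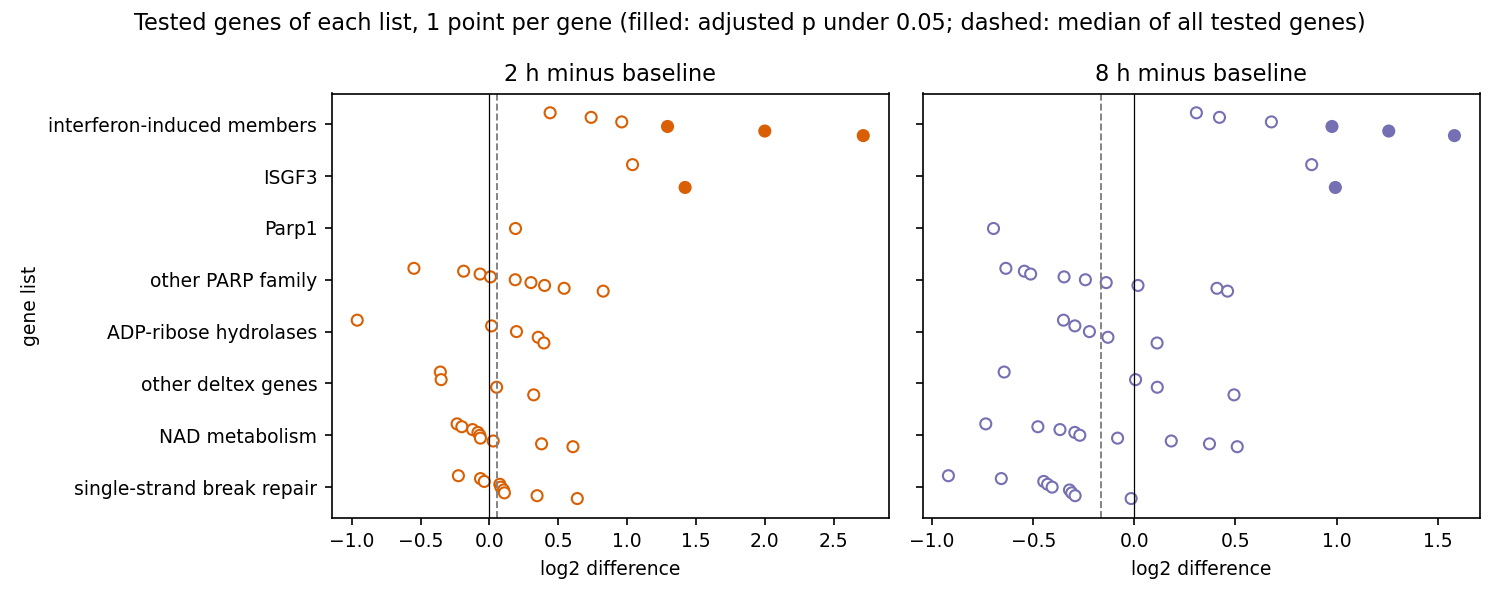
Log2 difference (horizontal axis) of every tested gene, 1 point per gene, in each list (rows) for 2 h and for 8 h minus baseline. Filled points had an adjusted p under 0.05 and the dashed line is the median of all tested genes. Filled points occur only among the interferon-induced members and the ISGF3 genes, and 8 of the 9 single-strand break repair genes lie below the dashed line at 8 h.

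The genes flanking the members on their chromosomes held no call against baseline. Of 20 distinct nearest protein-coding neighbours, 2 on each side of each member, 14 were tested and none passed at 2 h or 8 h (limma, 2 and 1 at an unadjusted p under 0.05). Kpna1, an importin alpha gene beside Parp9, stood at 0.72 at 2 h (SE 0.21, adjusted p = 0.233) and −0.87 at 8 h (SE 0.21, adjusted p = 0.062), and was the 1 neighbour called for 8 h minus 2 h (−1.59, SE 0.25, adjusted p = 0.0133). Slc37a3, a neighbour of Parp12, stood at 0.17 (SE 0.25) and −0.52 (SE 0.25).

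For each member the genes nearest in pattern were found by the Euclidean distance between log2 values of the 4 arrays after subtraction of the baseline mean. The nearest to Parp12 were Mx1, an antiviral dynamin-like GTPase (distance 0.25; 2.58 at 2 h and 1.71 at 8 h), and Cmpk2, a mitochondrial nucleotide kinase (distance 0.28; 2.52 and 1.76). Nearest to Parp14 were Ccnyl1, a cyclin Y-like gene (distance 0.19; 2.04 and 1.08), and Slfn5 of the Schlafen family (distance 0.35; 2.35 and 1.29). Nearest to Parp9 were Trafd1 (distance 0.09; 1.26 and 1.06) and Ctla2a (distance 0.13; 1.18 and 1.04).

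Dtx3l lay nearest to Ube2l6, the conjugating enzyme for the ubiquitin-like protein Isg15 (distance 0.06; 0.99 at 2 h and 0.68 at 8 h), and to Tor1aip1 (distance 0.11; 0.88 and 0.61). The neighbours of Parp10 were Pik3r1 (distance 0.03; 0.77 and 0.30) and Camk2n1 (distance 0.05; 0.72 and 0.29), and those of Parp11 were Nat14 (distance 0.08; 0.42 and 0.50) and Lpar6 (distance 0.10; 0.44 and 0.33). Parp1 lay nearest to Nup155, a nuclear pore gene (distance 0.03; 0.17 and −0.71), and D10Wsu102e (distance 0.04; 0.19 and −0.67). For no member was another member the nearest gene, and the lowest place at which one stood was 8 of all tested genes, for Parp12. By distance the closest pair among the 6 interferon-induced members was Parp10 and Parp11 (0.335). Many other genes lay closer to each, since Parp11 stood at place 139 for Parp10 and Parp10 at place 177 for Parp11.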

How the data were processed

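RNA from 4 samples of mouse CD4+ T cells was hybridised to Affymetrix arrays, 1 sample per array. The deposited values are linear intensity values that the authors made by RMA in Affymetrix Power Tools. This comes from the submitters' processing notes, and the sources used here do not give which arrays were normalized together. Log2 was taken here with no pseudocount, and precision is limited by how few arrays there are. Of 24922 rows, 21425 had 1 gene symbol, and a gene with several rows was represented by the one with the highest mean. Groups were taken from sample titles. The test was limma 3.58.1 under R 4.3.3 (a mean per group, empirical Bayes, Benjamini-Hochberg over 10699 genes, two-sided, adjusted p under 0.05). Only the baseline pair gives a spread, so the fit has 1 residual degree of freedom beside 7.46 prior ones (prior SD 0.17 on the log2 scale), and the single IFNa arrays are taken to vary as the baseline pair does. On simulated data of this size the share of false calls exceeded the nominal level in most runs, so calls near the threshold are uncertain. The members, lists and the rule for named genes (the members, their 2 nearest in pattern, and up to 4 called or 2 largest differences per list) were chosen with earlier results of these data known. Alternatives were quantile normalization, median centring, no filter or one at the 60th percentile, an intensity trend, the mean of a gene's rows, a pseudocount of 16 and leaving out each baseline array.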

Additional observations from a re-analysis of the deposited data

Results flagged for a closer look

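The change of Parp12 differed between the IFNa times by the test of that difference, with a log2 difference of −1.13 for 8 h minus 2 h (SE 0.23, adjusted p = 0.0246 by limma, 1 array against 1). Over the 7 alternative settings with a test it ran from −1.31 to −0.73 with adjusted p from 0.00167 to 0.0529. Between the same arrays 10.8% of all tested genes were called lower, and the part of that wider shift in the value was not tested. Parp1 stood at −0.88 (SE 0.25, not called) between these arrays. The difference of Parp12 less that of Parp1 was −0.25, a gap that was not tested.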

How the results depend on the processing

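Of 147 repeats of the 21 differences under 7 settings, 134 kept both their direction and their side of the threshold, 4 lost the call and 7 gained one. The other 2 turned sign, namely Parp9 (0.017) and Parp11 (0.39) for 8 h minus 2 h after quantile normalization. The differences themselves could change only with quantile normalization, centred arrays or the pseudocount. Under the other settings they were the same by construction, so there only the call could change. Parp12 and Parp14 stayed called at 2 h and at 8 h under all 7. Genes called at 2 h against baseline (118; 117 higher, 1 lower) became 441 after quantile normalization (332 higher, 109 lower) and 298 with centred arrays (291 and 7). At 8 h the 428 (70 higher, 358 lower) became 1563 after quantile normalization (663 and 900), 794 with centred arrays (70 and 724), 143 with no filter (42 and 101) and 255 at the 60th percentile (52 and 203). For 8 h minus 2 h the 1311 (156 higher, 1155 lower) became 2306 after quantile normalization (990 and 1316), 2387 with centred arrays (72 and 2315) and 415 with no filter (20 and 395). Members called at 8 h became 5 after quantile normalization, and for 8 h minus 2 h 2 with centred arrays and 0 with no filter (limma, 2 at an unadjusted p under 0.05). The prior degrees of freedom were 34.8 after quantile normalization and infinite with centred arrays, against 7.46 in the main fit. The prior SD was 0.17 after quantile normalization and 0.24 with centred arrays, against 0.17 in the main fit. More prior degrees of freedom lower p, and a larger prior SD raises it. Their part in the changed calls was not tested. With baseline replicate 1 or 2 left out there was no residual degree of freedom and so no test. Members at least 2-fold different then numbered 3 to 4 at 2 h and 2 to 3 at 8 h. The 28 differences from baseline could not change sign, because each IFNa value of the 7 genes lay above both or below both baseline arrays. No paired analysis was possible because the groups share only replicate number 1.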
